A study of Saccharomyces cerevisiae with 2 samples.

Results

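The genes described here are UBI4, which encodes a chain of ubiquitin units, and 9 genes of enzymes that conjugate ubiquitin or its relatives SUMO and RUB1 to other proteins (UBC1, CDC34, UBC4, UBC5, UBC6, UBC7, UBC9, UBC12 and UBC13). They were chosen by gene name from the platform annotation of the array, and all 10 were found, each by 1 probe set, among 5449 genes of budding yeast (Saccharomyces cerevisiae) with a value. Transcripts were quantified with 2 arrays (Affymetrix GeneChip Yeast Genome 2.0). By their labels, 1 was of cells under dietary restriction (DR, 0.5% glucose) and 1 of cells fed ad libitum (AL, 2.0% glucose). Cells of both conditions were the haploid wild-type strain BY4742 (mating type alpha, carrying his3Delta1, leu2Delta0, lys2Delta0 and ura3Delta0), grown in 1% yeast extract and peptone at 30°C for 12 hours, from a density (OD600) of 0.01 to a final 0.85 to 0.99. The arrays are called the DR array and the AL array after their deposited labels. A single array stands for each condition, so every difference below is unreplicated, its error cannot be estimated from these data, and no p-value is given. The number of arrays limits the precision throughout.

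Ubiquitin is a small protein that is attached to other proteins through a relay of an activating enzyme (E1), a conjugating enzyme (E2) and a ligase (E3), and that often marks them for degradation by the proteasome. SUMO (encoded by SMT3) and RUB1, the yeast relative of NEDD8, travel through relays of the same kind with their own E1 and E2 enzymes. Yeast has many E2 enzymes, and they differ in the ligases they serve and in the kind of ubiquitin chain they build, so the set of E2 genes that a cell expresses bears on which proteins can be marked.

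The clearest contrast within the family was between the paralogs UBC4 and UBC5, which stood on opposite sides. The signal of UBC4 was 5608 on the DR array and 2148 on the AL array, whereas the signal of UBC5 was 267.3 on the DR array and 1197 on the AL array. UBC12, the E2 of RUB1, had a signal of 210.6 on the DR array and 104.2 on the AL array. The other 7 genes, UBI4 among them, lay within 2-fold between the arrays. The plot of signals by gene shows every value.

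**Figure D1:**
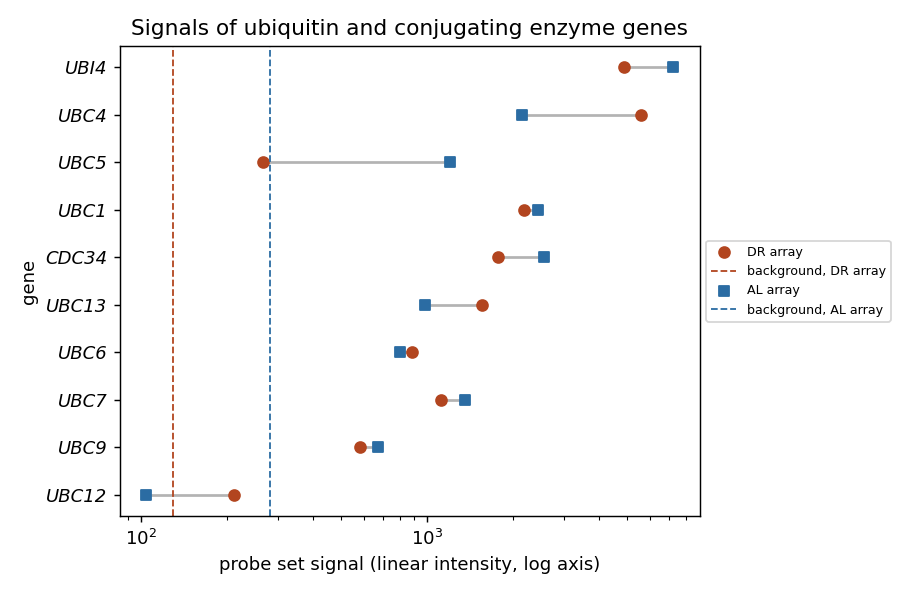
Signal of each of the 10 genes (x axis, linear probe set intensity on a log axis) on the DR array (circles) and the AL array (squares), with the background level of each array as a dashed line of its colour. UBC4 and UBC5 are joined by long lines that run in opposite directions, and the AL signal of UBC12 (104.2) is the one point left of its own background line (281.6); signals of different genes come from different probes and are not comparable.

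Every ratio below is the DR array over the AL array. This direction opposes the study's own. For 163 genes listed with a ratio in the study's supplementary tables that also had a value here, 163 lay on the opposite side of 1. If the labels were exchanged, the sign of every log2 ratio and the direction of every count and share given here would turn, and the sizes and the contrast between UBC4 and UBC5 would be the same.

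Background was judged from genes that the strain lacks (URA3, LEU2 and LYS2) or keeps silent as an alpha cell (STE2, STE6, MFA1, MFA2, BAR1 and AGA2). The highest of these 9 genes, STE6, had a signal of 129.4 on the DR array and 281.6 on the AL array. The STE6 levels are taken as background, and 566 of the 5449 genes lay under them on both arrays. The array also carries probe sets named for genes outside the S. cerevisiae gene table, with symbols in lower case. Of these 1746 probe sets, 7 bear the lower-case name of a gene described here (ubc1, ubc4, ubc6, ubc7, ubc12, ubc13 and ubi4), and they were kept out of every value. Their signals reached 15.3 on the DR array and 9.80 on the AL array, below the lowest signals of the yeast genes described here, 210.6 and 104.2. All 1746 probe sets lay at or below 32.8 on the DR array and 43.3 on the AL array. The AL signal of UBC12, 104.2, was thus above each of them, though under the levels of STE6 and STE2. Of the 10 genes, 9 were above background on both arrays, and UBC12 was above it on the DR array only. Under background on both arrays were 0 of the 10, beside the 566 of all 5449 genes.

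Past 2-fold, 2 of the 10 genes (UBC4 and UBC12) were higher on the DR array, against 20.5% of all genes, and 1 (UBC5) was higher on the AL array, against 24.4% of all genes. At 1.5-fold the counts were 3 (with UBC13), against 29.3% of all genes, and 1, against 35.7%. At 3-fold they were 0, against 11.5%, and 1 (UBC5), against 12.7%. These shares lay near or below those of all genes, and the counts are therefore not a feature of this family. The median log2 ratio of the 10 genes was −0.19, beside −0.12 for all genes, and it was 0.02 after the trend of the ratio on signal was removed. UBC12 lay just past the 2-fold threshold at 2.02-fold in the deposited values, with an AL signal under background. Of the alternatives, 4 took UBC12 out of the count, 1 of them reversing its log2 ratio to −0.42. UBC13, at 1.58-fold, was the nearest gene that did not pass 2-fold.

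**Figure D2:**
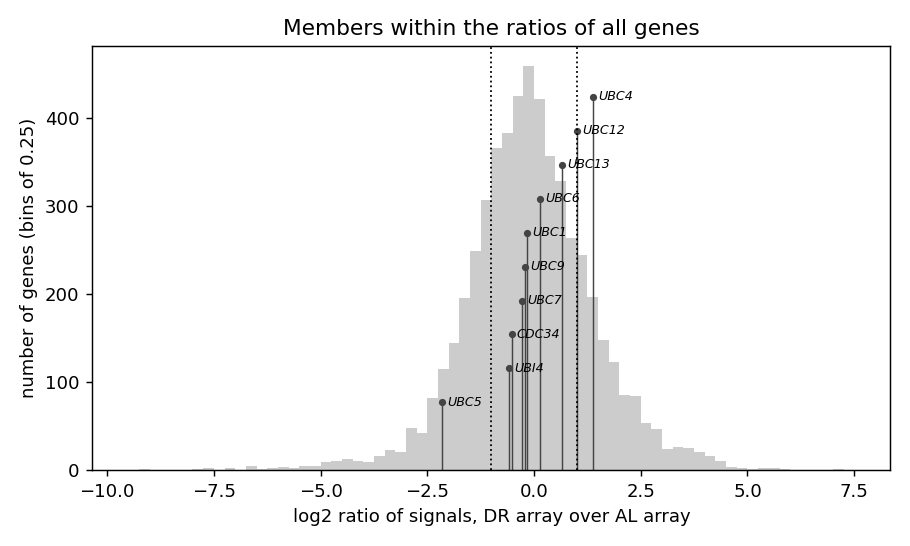
Number of genes (y axis, bins of 0.25) by log2 ratio of the DR array over the AL array (x axis) for all 5449 genes, with the 10 genes marked by stems whose heights carry no value and the 2-fold limits as dotted lines. UBC5 lies in the lower tail at −2.16, UBC4 in the upper part at 1.38, and most of the others lie near the middle.

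UBC4 and UBC5 encode closely related E2 enzymes that share the bulk of the work of degrading short-lived and damaged proteins, and UBC5 is known as the form that serves mainly in stationary phase while UBC4 serves growing cells. The UBC4 signals of 5608 on the DR array and 2148 on the AL array made a ratio of 2.61 (log2 ratio 1.38), and 767 of 5449 genes had a higher ratio. The UBC5 signals of 267.3 and 1197 made a ratio of 0.223 (log2 ratio −2.16), a 4.48-fold lower signal on the DR array, and 350 genes had a lower ratio. The log2 ratios of the paralogs therefore differed by 3.55, or 11.7-fold. Every alternative processing kept the opposite signs, and the difference ran from 3.05 with the trend on signal removed to 3.55. The UBC5 signal on the DR array was above the background of that array, 267.3 against 129.4. The probe sets of both genes carry the plain ending that Affymetrix uses for probes designed to a single transcript. How far each also binds the other transcript was not tested.

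Other duplicated genes of the pathway can be set beside UBC4 and UBC5. The 6 further pairs were picked after their values had been seen. They are therefore no yardstick for paralogs in general, and the ranking among them is a description only. The ratios of UBP7 and UBP11, both deubiquitinating enzymes, differed by 2.67 on the log2 scale, with UBP7 at a log2 ratio of 0.69 and UBP11 at −1.98. The AL signal of UBP7, 274.9, was just under background, and with it raised to background the difference was 2.64. RPL40A and RPL40B, each a fusion of ubiquitin to a ribosomal protein, were both higher on the DR array, with log2 ratios of 1.74 and 3.92. Binding of a probe set to the transcript of the paralog was not tested for this pair or the others. ASI1 and ASI3, ligase subunits of the inner nuclear membrane, had log2 ratios of 0.54 and −1.19. In contrast, the SUMO ligases SIZ1 and NFI1 had −1.70 and −1.78, and the ligases UBR1 and UBR2 had −0.04 and −0.08. UBP9 and UBP13 had −0.66 and −0.07. UBC4 and UBC5 were the pair farthest apart of these 7, under the deposited scaling and under each alternative, and in the deposited values the only one with its genes past 2-fold in opposite directions.

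**Figure D3:**
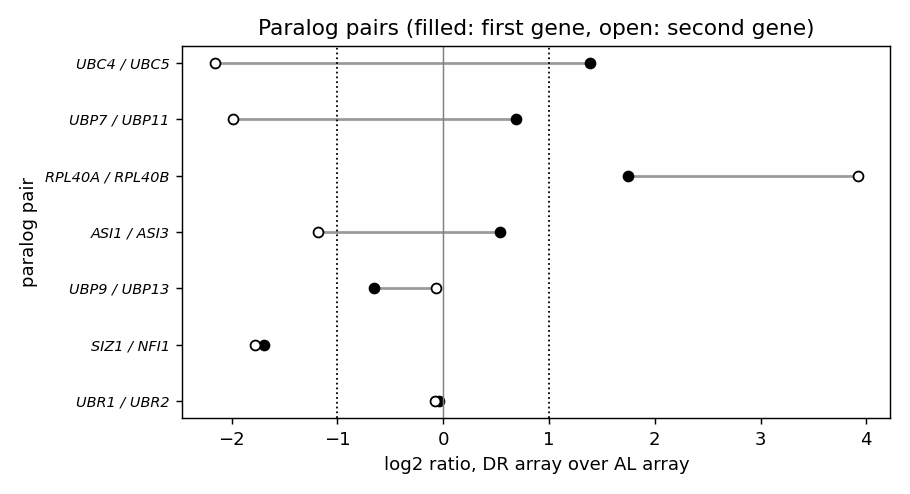
Log2 ratio of the DR array over the AL array (x axis) for both genes of 7 paralog pairs of the pathway (y axis), the first-named gene filled and the second open, with dotted lines at 2-fold. UBC4 (1.38) and UBC5 (−2.16) span the widest gap, while UBR1 and UBR2 nearly coincide.

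UBI4, the polyubiquitin gene that is known to supply ubiquitin under stress, had a signal of 4863 on the DR array and 7253 on the AL array. Its ratio was 0.671 (log2 ratio −0.58), within 2-fold, and it ranged from −0.80 to −0.46 over the alternatives. Ubiquitin is also made from 3 genes that join it to a ribosomal protein, and these stood the other way. RPL40B had 5518 on the DR array and 363.4 on the AL array, a ratio of 15.2, and RPL40A had 5867 and 1752, a ratio of 3.35. How far the probe set of either gene also binds the transcript of the other was not tested. RPS31 had 8550 on the DR array and 5201 on the AL array, a ratio of 1.64. UBI4 and the ribosome-linked genes lay on opposite sides of 1, UBI4 and RPS31 by less than 2-fold.

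Among the other E2 enzymes of ubiquitin, UBC1 serves in vesicle traffic and in extending chains, and CDC34 is the E2 of the SCF ligase that lets cells enter S phase. UBC1 had a signal of 2176 on the DR array and 2447 on the AL array, and CDC34 had 1772 and 2551. Neither passed 1.5-fold. Of the CDC34 partners in SCF, the RING subunit HRT1 had 525.7 on the DR array and 1810 on the AL array, a log2 ratio of −1.78, and the adaptor SKP1 had 2276 and 1547, a log2 ratio of 0.56. The scaffold CDC53 (1482 and 1860) and the F-box protein CDC4 (600.3 and 557.8), named outside the fixed rule, lay within 1.5-fold as CDC34 did. So did the F-box protein GRR1 (524.4 and 551.3). In contrast, the F-box protein MET30, also outside the rule, had 417.7 and 1204, a log2 ratio of −1.53. Of the 8 genes in the list of SCF and RUB-related factors, 2 were more than 2-fold higher on the AL array, against 24.4% of all genes, and 0 on the DR array, against 20.5%.

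UBC13 builds chains of a kind that does not target proteins to the proteasome, together with MMS2, an E2 variant without a catalytic cysteine, in the tolerance of DNA damage. UBC13 had a signal of 1553 on the DR array and 982.6 on the AL array, and MMS2 had 473.2 and 695.0. The log2 ratios were 0.66 and −0.55, so the obligate partners lay on opposite sides of 1, each by less than 2-fold. RAD6, the E2 that acts first in the same pathway, had 857.3 on the DR array and 1220 on the AL array, a log2 ratio of −0.51.

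UBC6 and UBC7 are the E2 enzymes of the endoplasmic reticulum membrane that mark misfolded proteins there, UBC6 by its own membrane anchor and UBC7 through the membrane protein CUE1. UBC6 had a signal of 884.1 on the DR array and 805.4 on the AL array, a 1.10-fold difference. UBC7 had 1119 and 1360, a 1.22-fold difference the other way, and CUE1, named outside the rule, had 1475 and 1117. SSM4 and HRD1 are ligases that these enzymes serve. They were named for the highest and lowest ratio among 10 membrane partners, so a wide gap between them follows from that choice. SSM4, also called DOA10, had 1651 on the DR array and 722.8 on the AL array, a log2 ratio of 1.19, and HRD1 had 942.1 and 2378, a log2 ratio of −1.34. These were the only genes of the 10 in the list of membrane partners to pass 2-fold. That is 1 of 10 higher on the DR array, against 20.5% of all genes, and 1 of 10 higher on the AL array, against 24.4%. UBC6 and UBC7 lay within 1.5-fold.

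UBC9, the E2 of SUMO, had a signal of 580.8 on the DR array and 673.3 on the AL array, a log2 ratio of −0.21 that became 0.03 after quantile normalization and 0.11 with the trend on signal removed. The SUMO gene SMT3 had 1659 on the DR array and 4250 on the AL array, a log2 ratio of −1.36. The E1 of SUMO is a pair of subunits, and AOS1 had 1737 on the DR array and 861.1 on the AL array while UBA2 had 1353 and 999.7, log2 ratios of 1.01 and 0.44. Of 8 SUMO ligases, proteases and SUMO-targeted factors, 7 were more than 2-fold higher on the AL array, against 24.4% of all genes, and 0 on the DR array, against 20.5%, with a median log2 ratio of −1.67 beside −0.12 for all genes. That list of 8 was written with earlier results of these arrays in view, so its count and median are a description only. ULP2, a protease that takes apart SUMO chains, had 318.1 on the DR array and 1356 on the AL array. ULP1, the protease at the nuclear pore that also matures SUMO, stood apart from the rest with 554.5 and 319.0. One of the 7, the ligase gene MMS21, lay under background on both arrays at 69.8 and 198.3.

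UBC12, the E2 of RUB1, had signals of 210.6 on the DR array and 104.2 on the AL array, the second of them under background. Its log2 ratio of 1.02 became 0.99 after quantile normalization, 0.93 with the trend on signal removed and 0.54 with the median background signal added to both arrays. With the AL signal raised to the background of that array it turned to −0.42, so no bound on its fold can be given at that level. That setting uses a higher floor on the AL array, 281.6 against 129.4, and UBC11, under both floors, took a log2 ratio of −1.12 there. RUB1 had signals of 358.9 on the DR array and 173.1 on the AL array, a log2 ratio of 1.05 that became 0.35 with the AL signal raised in the same way. The E1 of RUB1 has 2 subunits. UBA3, the catalytic subunit, had 269.5 on the DR array and 1013 on the AL array, and ULA1, its partner, had 519.9 and 1796. These are log2 ratios of −1.91 and −1.79, and the signals of both genes were above background on both arrays.

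**Figure D4:**
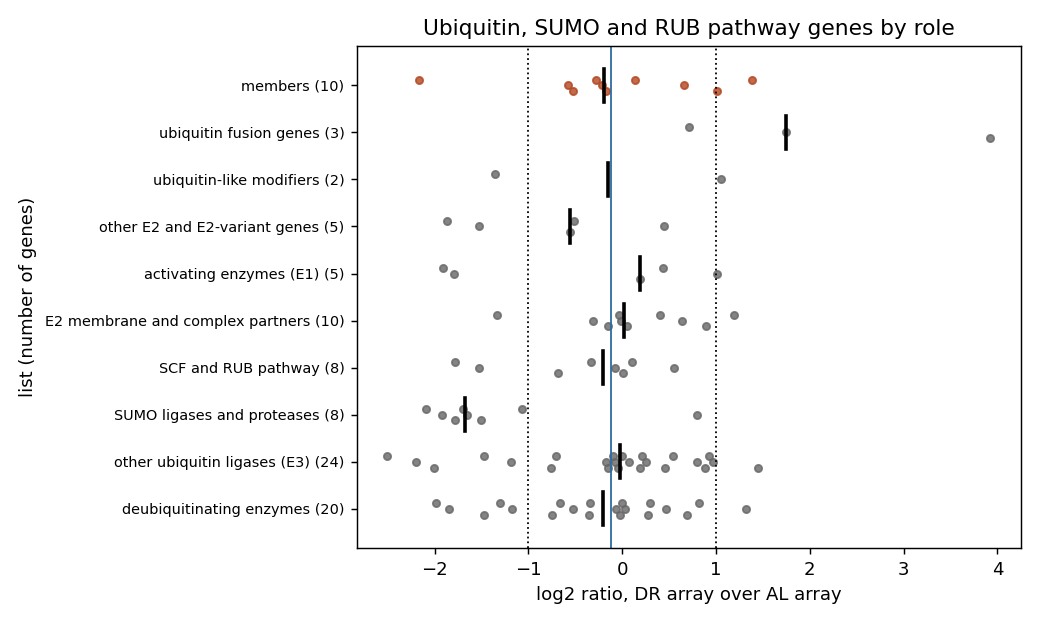
Log2 ratio of the DR array over the AL array (x axis) for the 10 genes and 85 further genes of the ubiquitin, SUMO and RUB pathways in 9 lists by role (y axis), 1 point a gene, with the median of each list as a black bar, the median of all genes (−0.12) as a solid line and 2-fold as dotted lines. The 10 genes spread around the median of all genes, and the list of SUMO ligases and proteases lies mostly left of the lower 2-fold line with a median of −1.67. All 9 lists were written with earlier results of these arrays in view.

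Among the remaining E2 genes, UBC8, which acts in the degradation of fructose-bisphosphatase, had a signal of 1254 on the DR array and 4587 on the AL array. PEX4, the E2 of peroxisomes, had 118.1 and 339.7, a log2 ratio of −1.52 in which the DR signal was under background. UBC11 had 13.4 and 9.80 and was under background on both arrays. The single E1 of ubiquitin, UBA1, had 3758 on the DR array and 3297 on the AL array, a 1.14-fold difference.

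Of the 24 other ubiquitin ligases, 1 was more than 2-fold higher on the DR array and 5 on the AL array, against 20.5% and 24.4% of all genes. PSH1, a ligase for the centromeric histone, had the lowest ratio with 275.2 on the DR array and 1561 on the AL array, and HUL5, a proteasome-bound ligase that lengthens chains, the highest with 606.6 and 222.0, the AL signal being under background (log2 ratio 1.45, and 1.11 with that signal raised to background). Of 20 deubiquitinating enzymes, 1 was more than 2-fold higher on the DR array and 5 on the AL array, against the same shares of all genes. UBP11 had 319.1 on the DR array and 1262 on the AL array, and UBP12, the one higher on the DR array, had 526.7 and 211.2. The AL signal of UBP12 was under background, and its log2 ratio of 1.32 became 0.90, within 2-fold, with that signal raised to background. Over all 85 further genes, 7 passed 2-fold with the higher signal on the DR array and 25 with the higher signal on the AL array, against 20.5% and 24.4% of all genes, and the median log2 ratio was −0.07. The lists were written from textbook knowledge with earlier results of these arrays in view.

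**Figure D5:**
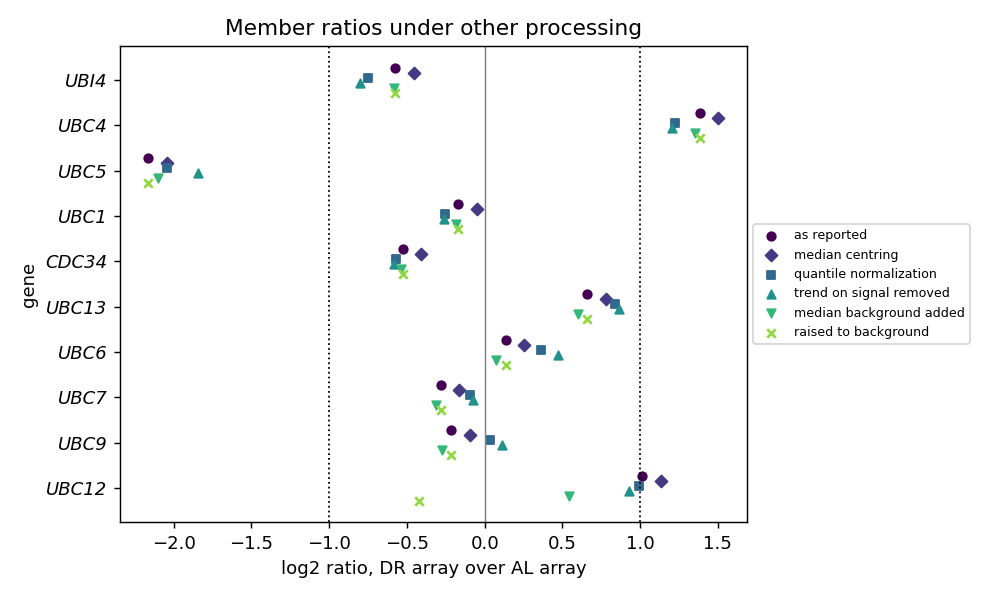
Log2 ratio of the DR array over the AL array (x axis) for each of the 10 genes (y axis) under the deposited scaling and 5 alternatives (symbols), with dotted lines at 2-fold and a solid line at 0. UBC4 and UBC5 stay beyond 2-fold on their own sides under every setting drawn, while UBC12 ranges from −0.42 to 1.13.

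The genes next to the 10 genes on the chromosomes were looked up after the values of the family had been seen. All 20 neighbours had a value, and 6 of them were more than 2-fold higher on the DR array, against 20.5% of all genes, and 4 on the AL array, against 24.4%. One of the 6, SYO1 beside UBC9, lay under background on both arrays with 92.3 and 22.7. SPT7 and TEC1, on either side of UBC4, lay within 2-fold, with signals of 386.1 and 1272 on the DR array and 720.0 and 1106 on the AL array. Beside UBC5, TGL2 had 650.6 on the DR array and 1525 on the AL array, and MAK21 on its other side had 851.4 and 298.3. UBC13 lies between RLI1 (1524 on the DR array and 291.9 on the AL array) and DNF2 (1770 and 415.3), each more than 4-fold higher on the DR array, while UBC13 itself was 1.58-fold higher there.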

How the data were processed

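Total RNA was hybridized to 1 array per condition by the authors' service laboratory, which normalized the signals by Affymetrix statistical algorithms. The number of cultures behind each array is not stated. The authors deposited 1 linear intensity per array for each of 10928 probe sets. Neither the software version nor the scaling target or detection calls are known from the sources used here. Median intensities were 48.5 on the DR array and 55.8 on the AL array. Probe sets were named by the platform annotation, and the 5498 whose single gene ID is in the S. cerevisiae RefSeq gene table were kept. Where a gene had several, their log2 values were averaged, with no pseudocount. Ratios were the DR array over the AL array, called past 2-fold, the threshold of the study's methods.

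The members and lists were chosen with earlier results of these data known. Named were all members, all fusion genes, modifiers, further E2 and E1 genes, and in each other list the genes with the highest and lowest ratio among those above background on at least 1 array. Neighbours are adjacent protein-coding genes of the RefSeq table. No promoter or protein sequences were used here. Alternatives were quantile normalization of all probe sets, median centring, a lowess fit (span 0.3) to remove the trend on signal, raising signals to background, adding the median background signal (24.6 and 57.6), the brightest probe set, thresholds of 1.5-fold and 3-fold and, added after seeing the data, raising signals to the 95th percentile of probe sets outside the table (11.7 and 11.5). The ratio and scaling code was tested on simulated data. Computations used Python 3.11.15, pandas 2.3.3, numpy 2.4.6 and statsmodels 0.14.6, with figures by matplotlib 3.10.9.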

Additional observations from a re-analysis of the deposited data

How the results depend on the processing

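UBC4 and UBC5 kept their sides of the 2-fold threshold under every rescaling and background alternative. The count of members past 2-fold and higher on the DR array, 2 in the deposited values, was 1 after quantile normalization, with the trend on signal removed, with background added and with signals raised to background, since UBC12 then lay within 2-fold. It was 0 at 3-fold. The log2 ratio of UBC12 reversed to −0.42 with signals raised to background, and stayed at 1.02 with signals raised to 11.7 and 11.5. Of the 85 further pathway genes, the 7 past 2-fold toward DR became 11 after median centring, where 1239 of all 5449 genes passed. The 7 became 17 at 1.5-fold, against 29.3% of all genes, and 2 at 3-fold, against 11.5%. Each of these DR counts was a smaller share of its list than that of all genes. Toward AL, the 25 became 14 at 3-fold, a larger share than the 12.7% of all genes. Of all genes past 2-fold, 45.7% were higher on the DR array, and 30.6% with signals raised to background, which is higher on the AL array; with the labels exchanged these shares would be 54.3% and 69.4%. That setting moved the median log2 ratio of all genes to −0.39, and adding background moved it to −0.27. No paired analysis was possible because each condition has 1 array, and no array could be left out. Low signals, such as those of UBC12, RUB1 and PEX4, limit their ratios most.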
